A study of Mus musculus with 12 samples.

Results

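The genes described are the 65 protein-coding mouse genes whose symbol is Zfp followed by a 3-digit number that starts with 9, with or without a letter, out of 55487 genes in the count table. The family was selected on measured values: its read counts in these same libraries had been seen to lie lower in Mettl5 knockout (KO) liver and higher in KO brain, so every genotype value below is a description and is not a test of that pattern. Total RNA from liver and brain of 6 mice was sequenced, which gave 3 libraries in each of 4 groups: wild-type (WT) liver, KO liver, WT brain and KO brain. METTL5 is the methyltransferase that places m6A on 18S rRNA. Mice B, D and E were labelled WT and mice A, C and F KO, and each mouse gave both tissues. The KO line carried a floxed exon 2 of Mettl5 that was deleted in the whole body by a CMV-driven Cre transgene, and it came from C57bl/6 x 129S6 hybrid ES cells followed by backcrossing to B6. The study's text speaks of heterozygous animals as the comparison group for this sequencing, whereas the sample labels say WT. Its supplement is mixed: the title of the data table and a plot of reads name wild-type mice, and a hormone assay names heterozygous ones. Sex and age were not labelled per mouse.

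Zfp genes of this kind encode C2H2 zinc finger proteins. In each finger paired cysteines and histidines hold a zinc ion, and an array of fingers reads DNA bases. Most of these proteins also carry a KRAB domain, which binds TRIM28 (KAP1) and through it brings in the histone methyltransferase SETDB1, HP1 proteins and DNA methylation. They are known chiefly as repressors of endogenous retroviruses and other transposons. The genes arise by tandem duplication, so they sit in clusters that differ between rodent species and strains, and neighbours can be nearly identical in sequence. Roles of single members are little known and are not given.

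The sequence of the family was read from the GENCODE M21 transcripts (GRCm38). The zinc finger arrays held a median of 11 fingers per gene (range, 0 to 21), and in all 62 members with a finger the whole array lay in 1 coding exon. The core of the KRAB domain was present in 61 of 65 members (93.8%) and in 142 of 329 other protein-coding Zfp genes (43.2%). Exonic GC content was low, with a median of 38.7% (range, 35.1% to 53.6%) against 45.7% in the other Zfp genes and 48.4% in all protein-coding genes, and 63 of 65 members lay below that last value. Single fingers of 5 members are shown because reads are assigned to a member only where its bases differ from those of its neighbours. Each is 84 bases of coding exon, from the first cysteine codon to the end of the linker, with the codons of the zinc-binding cysteines and histidines in capitals.

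Zfp942 finger 3: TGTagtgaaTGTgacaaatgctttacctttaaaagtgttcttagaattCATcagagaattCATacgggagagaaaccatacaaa
Zfp943 finger 3: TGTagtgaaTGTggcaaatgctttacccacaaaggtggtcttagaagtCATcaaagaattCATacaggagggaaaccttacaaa
Zfp970 finger 3: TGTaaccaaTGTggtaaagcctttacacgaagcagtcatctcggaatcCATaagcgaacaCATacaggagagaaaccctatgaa
Zfp987 finger 7: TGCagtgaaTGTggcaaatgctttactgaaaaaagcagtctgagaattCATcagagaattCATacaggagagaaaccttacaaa
Zfp987 finger 8: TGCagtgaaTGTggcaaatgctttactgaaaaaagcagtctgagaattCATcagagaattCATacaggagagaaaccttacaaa
Zfp980 finger 6: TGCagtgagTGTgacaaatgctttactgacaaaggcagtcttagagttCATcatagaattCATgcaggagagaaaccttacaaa

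The fingers of Zfp942 and Zfp943, which are neighbours on chromosome 17, lay at chr17:21928843-21928926 (minus strand) and chr17:21992646-21992729 (plus strand), and 73 of their 84 bases were identical. The finger of Zfp970, from the chromosome 2 cluster at chr2:177475199-177475282 (plus strand), shared 58 of 84 bases with that of Zfp942. Fingers 7 and 8 of Zfp987 on chromosome 4, at chr4:146125227-146125310 (plus strand) and chr4:146125311-146125394 (plus strand), were identical in all 84 bases. The finger of Zfp980, some way along the same cluster at chr4:145701879-145701962 (plus strand), matched them at 76 of 84 bases. Zfp980 and Zfp987 were chosen for display after their values were seen.

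Zfp942 (ENSMUSG00000071267.11, chr17:21926960-21962464, minus strand) and Zfp943 (ENSMUSG00000053347.15, chr17:21962552-22071168, plus strand) were transcribed away from each other, with 87 bases between their starts. The next closest such pair of members, Zfp955a and Zfp955b, had 34398 bases between starts. The intervening sequence, chr17:21962465-21962551 (plus strand), was taken from the RefSeq promoter table (GRCm38.p6). It is printed because both genes rank among those discussed below, with each CG dinucleotide in capitals.

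Zfp942 to Zfp943 gap: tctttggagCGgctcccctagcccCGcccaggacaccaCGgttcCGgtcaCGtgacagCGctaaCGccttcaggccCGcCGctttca

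This stretch of 87 bases held 9 CG dinucleotides and 66.7% G and C. The promoters of Zfp942 and Zfp943 in that table held 6.67 and 7 CG dinucleotides per 100 bases, and those of Zfp944 (7.33), Zfp961 (7) and Zfp964 (8) held as many or more. Across the 55 members with a promoter in that table, where each promoter is 300 bases long, the medians were 2.67 CG dinucleotides per 100 bases and 49.0% G and C, against 2.33 and 52.7% over all 27025 promoters listed.

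By position, 46 of the 65 members fell into 6 clusters, defined as runs of at least 3 members with no more than 2 Mb between neighbours. The largest, with 16 members, lay on chromosome 4 (chr4:145510759-147848366). Clusters of 10 members lay on chromosome 2 (chr2:175372436-178078476) and on chromosome 17 (chr17:21567008-22867134), the latter called the Zfp942 cluster below. A cluster of 4 lay on chromosome 7 (chr7:42579783-43192109), and clusters of 3 lay on chromosome 8 (chr8:69209038-69749970) and further along chromosome 17 (chr17:32993129-33307241), the last called the Zfp955 cluster. The other 19 members lay alone or in pairs, and the family as a whole occupied 12 chromosomes. With a limit of 0.5 Mb between neighbours, 7 clusters with 44 members resulted. A further gene that matched the symbol rule, Zfp939, is annotated as a pseudogene and was left out.

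The clusters differed widely in how much of their exonic sequence was their own. Of the 100-base windows of a member's exons, the read length used here, a median of 76.6% also occurred in another annotated gene in the chromosome 2 cluster and 36.7% in the chromosome 4 cluster. In the Zfp942 cluster the median was 0.699%, although 73 of 84 bases of the fingers shown above were alike. Every window of Zfp967 and Zfp969 was shared and no window of 14 members was. Reads from shared windows cannot be placed in 1 gene. Counts of members with many shared windows are therefore uncertain. The plot of shared windows against level shows this by member.

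**Figure D1:**
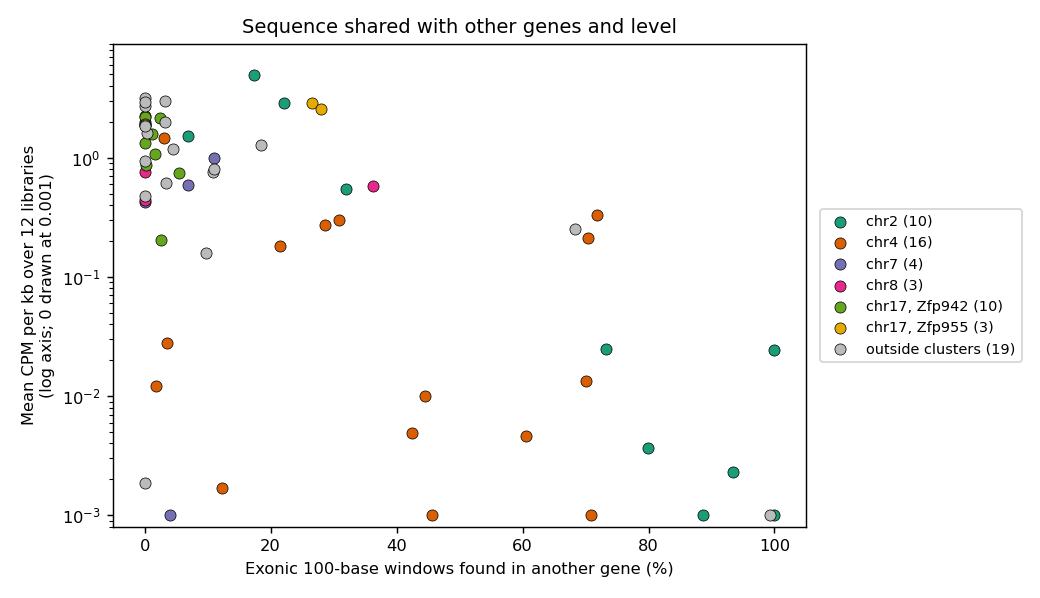
Mean level of each of the 65 members over the 12 libraries (CPM, read counts scaled to library size, per kilobase of exon; log axis, with 0 drawn at 0.001) against the percentage of its exonic 100-base windows that occur in another gene, coloured by cluster. The 10 members of the Zfp942 cluster sit at the left edge, with at most 5.39% of windows shared, whereas the undetected members of the chromosome 2 and chromosome 4 clusters spread to 100%.

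Library totals ranged from 14403309 to 21623180 counts, of which the 65 members together took 1504 to 6731. Levels are given as CPM on 1 scale for all 12 libraries, with library sizes normalised by TMM, with the libraries in the order B, D, E for WT and A, C, F for KO. Mettl5 itself was at 19, 10.1 and 10.4 CPM in WT liver and 4.94, 4.64 and 5.23 CPM in KO liver, and at 7.13, 4.66 and 3.96 CPM in WT brain and 2.61, 3.12 and 3 CPM in KO brain. Its log2 fold changes, -1.44 ± 0.27 (SE) and -0.84 ± 0.27, did not pass the threshold (edgeR quasi-likelihood test, Benjamini-Hochberg adjusted p = 0.383 and 0.373), but the libraries of the genotypes did not overlap in either tissue. The 6 liver markers summed to at least 74367 CPM in every liver library and at most 299 CPM in every brain library, and the 6 brain markers to at least 4215 CPM in brain and at most 223 CPM in liver. Mitochondrial rRNA took 7.36% to 31.6% of counts and differed between the groups, and mice E and F, 1 of each genotype, expressed Xist and almost no Y-linked transcripts. In bulk tissue, fewer cells of a type and less RNA per cell cannot be told apart.

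Most members were expressed at low levels. Per kilobase of exon and averaged over the 12 libraries, Zfp970 (ENSMUSG00000078866.10, chr2:177464733-177478129) was the highest at 4.95 CPM per kb. Zfp954 (3.16), Zfp941 (2.97), Zfp938 (2.95), Zfp955a (2.90), Zfp971 (2.87), Zfp949 (2.7) and Zfp955b (2.57) followed on the same scale. By group, Zfp970 was at 11.6 ± 3.67 CPM per kb (SD, n = 3) in WT liver, 3.22 ± 1.75 in KO liver, 2.08 ± 0.311 in WT brain and 2.91 ± 1.04 in KO brain, so its top rank rested on the WT liver libraries. Zfp954 spanned a narrower range, with 2.48 ± 0.141, 2.91 ± 0.189, 3.54 ± 0.436 and 3.72 ± 0.147 CPM per kb in the same order.

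At the other end, 6 members had no count in any library and 15 had 10 or fewer counts in all. In each group 15 to 19 members stayed at or below 3 counts in every library, and 14 did so in all 4 groups. Of these 14, 11 belonged to the chromosome 2 and chromosome 4 clusters. Their exons shared a median of 53.0% of windows with another gene, against 3.45% for the other 51 members. For genes whose windows are largely shared, a count near 0 does not show that the gene is silent. Some members with few shared windows were also at the floor: Zfp936 had no count with 4.01% of windows shared. It is named because it falls in this class, after its values were seen.

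Liver was also compared with brain, averaged over genotypes. This contrast is not the one on which the family was selected, but it is taken over the same libraries, KO included, so its counts over members are read with that in view. Of 45 members with enough counts, 25 were higher in brain and 7 higher in liver at an adjusted p under 0.1, against 47.0% and 37.9% of the 18944 genes tested in those directions. The median log2 fold change of liver over brain was -0.55 for the members and -0.22 for all genes. As a share of the members tested these are 55.6% and 15.6%. The balance changed under a GC offset, however: with it, 11 members were higher in brain and 22 higher in liver, against 38.8% and 48.5% of all genes, and the median became 0.38. As a share of the members tested, the 22 were 48.9%, close to the share over all genes, and the 11 were 24.4%. That offset also moved the median of all genes by 0.49, to 0.28, so relative to all genes the members went from -0.34 to 0.10. Without the offset, the median was -0.33 for the 27 members under 40% GC and -0.97 for the 16 of 40% to 45%. Other genes of these bands had medians of -0.91 and -0.35. A part of GC content in the tissue balance was not tested.

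The lean towards brain was also not shared by the genotypes. Within WT, by a contrast of the same edgeR fit chosen after the data were seen, 10 members were higher in brain and 19 higher in liver (43.6% and 34.8% of all genes), and the median log2 fold change was 0.41. Within KO, 33 were higher in brain and 1 higher in liver (44.6% and 35.5%), and the median was -1.41. The medians of all genes were -0.21 and -0.22. These genotype values are descriptions, since the selection fixed how they differ.

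Zfp941 showed the largest tissue difference among the members tested. Its levels were 25.4, 20.3 and 26.6 CPM in WT brain and 33.2, 23.6 and 31.1 CPM in KO brain, and 1.96, 1.04 and 1.99 CPM in WT liver and 0.695, 0.929 and 1.14 CPM in KO liver. All 6 brain libraries lay far above all 6 liver libraries, with a log2 fold change of -4.41 ± 0.19 (SE) and an adjusted p of 2.26e-11 by edgeR. Zfp940, also on chromosome 7 outside the cluster, was at 11, 8.28 and 9.26 CPM in WT brain, 11.7, 10.3 and 11.8 in KO brain, 1.11, 1.43 and 0.71 in WT liver and 1.24, 0.929 and 1.21 in KO liver. Again the tissues did not overlap, and the log2 fold change was -3.22 ± 0.19 (edgeR adjusted p = 8.5e-10).

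Zfp934 was barely counted in liver, at 0.131, 0 and 0.284 CPM in WT and 0.0772, 0 and 0.134 CPM in KO, against 1.52, 1.11 and 2.06 CPM in WT brain and 1.98, 1.87 and 1.86 CPM in KO brain (-3.998 ± 0.49, edgeR adjusted p = 2.83e-06). Zfp938 was at 9.66, 5.89 and 7.01 CPM and 15.6, 8.91 and 13 CPM in WT and KO brain and at 3.6, 1.99 and 3.27 CPM and 2.78, 2.07 and 1.54 CPM in WT and KO liver (-1.94 ± 0.22, edgeR adjusted p = 1.53e-06). For both genes every brain library exceeded every liver library. Zfp956 and Zfp955b were also higher in brain, with log2 fold changes of -1.72 ± 0.16 and -1.68 ± 0.19 and edgeR adjusted p of 1.19e-07 and 1.45e-06. With the GC offset these 6 members were still called higher in brain, but the log2 fold change of Zfp938 shrank to -0.49 ± 0.17 and that of Zfp955b to -0.996 ± 0.15. Those of Zfp941, Zfp940, Zfp934 and Zfp956 were -3.94, -2.74, -3.09 and -1.46. All 6 were higher in brain within WT and within KO as well, the largest edgeR adjusted p being 0.017 (Zfp955b in WT).

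Among the members higher in liver, Zfp953 on chromosome 13 was at 4.91, 3.35 and 7.53 CPM in WT liver and 3.94, 2.43 and 4.09 CPM in KO liver, against 1.26, 0.597 and 1.35 CPM in WT brain and 2.23, 1.7 and 1.04 CPM in KO brain. All liver libraries exceeded all brain libraries (1.69 ± 0.29, edgeR adjusted p = 9.6e-05). Zfp970 followed with 32.5, 16.7 and 26.4 CPM in WT liver and 11.1, 6.22 and 3.62 CPM in KO liver, and 5.01, 3.74 and 4.79 and 7.4, 7.83 and 3.73 CPM in WT and KO brain (1.31 ± 0.27, edgeR adjusted p = 0.000421). Here the tissues separated in WT only, since KO liver libraries overlapped the brain libraries.

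Zfp992, Zfp982, Zfp963 and Zfp959 completed the members higher in liver that the naming rule picked, with log2 fold changes of 1.66 ± 0.52, 1.95 ± 0.90, 0.87 ± 0.33 and 0.57 ± 0.25. The edgeR adjusted p were 0.00913, 0.0632, 0.0257 and 0.0498. Calls for Zfp959, Zfp982 and Zfp992 were lost when single mice were left out. Zfp959 was not called without mouse A, E or F, Zfp982 without mouse A, C or D and Zfp992 without mouse A, at adjusted p of 0.108 to 0.266. With the GC offset the values of the 6 named members higher in liver were larger, from 1.42 for Zfp963 to 3.07 for Zfp992. Within WT all 6 were called higher in liver, and within KO Zfp953 was the 1 member so called. Zfp982 and Zfp992 lay at -0.41 ± 1.23 and -0.20 ± 0.75 within KO. Of the 25 members called higher in brain on average, 9 had a positive log2 fold change within WT, and 2 of these, Zfp942 (0.71 ± 0.37) and Zfp943 (0.83 ± 0.39), were called higher in liver there (edgeR adjusted p = 0.096 and 0.0701).

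The summed level shows the same by genotype. The 65 members summed to 268 ± 88.1 CPM (SD, n = 3) in WT liver and 244 ± 48.3 CPM in WT brain, and to 130.5 ± 26.9 CPM in KO liver and 366 ± 55 CPM in KO brain.

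By library, the summed level was 314, 166 and 323 CPM in WT liver and 160.0, 107 and 124 CPM in KO liver. All KO liver libraries lay below all WT ones, although WT mouse D and KO mouse A were close. In brain the sums were 283, 189.9 and 259 CPM in WT and 429, 328 and 341 CPM in KO, and all KO libraries lay above all WT ones. The ratio of the group means was 0.487 in liver and 1.5 in brain. Between genotypes, mitochondrial rRNA moved with these sums in each tissue: it took 16.5, 10.7 and 16.9% of counts in WT liver and 7.89, 8.66 and 7.36% in KO liver, and 17.7, 7.63 and 11.7% in WT brain and 31.6, 21.4 and 22.1% in KO brain. Within WT, mouse D was lowest in both quantities in both tissues, as the plot by library shows. Within KO liver the orders differed: mouse C had the most mitochondrial rRNA (8.66%) and the lowest sum (107 CPM). With these rRNA genes left out before scaling, the median log2 fold changes of KO over WT given below were -0.98 in liver and 0.70 in brain.

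**Figure D2:**
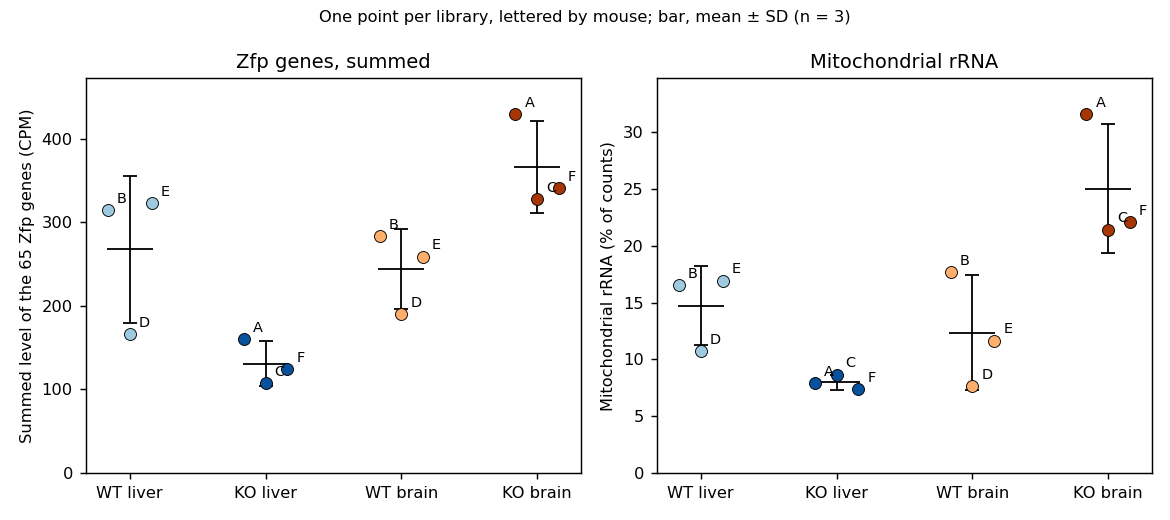
Summed level of the 65 Zfp genes (CPM, left) and mitochondrial rRNA (percentage of all counts, right) in each of the 12 libraries, lettered by mouse, with the mean and SD of each group of 3. The left panel shows means of 268 CPM in WT liver, 130.5 CPM in KO liver, 244 CPM in WT brain and 366 CPM in KO brain, and the right panel has the same order of groups within each tissue.

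All 6 clusters showed the same arrangement of means. The Zfp942 cluster held the largest share of the family's summed level among clusters, from 19.3% in WT brain to 28.9% in WT liver. It summed to 90.5, 39 and 102 CPM in WT liver and 38.1, 24.8 and 30.1 CPM in KO liver, and to 59.1, 30.7 and 51.5 CPM in WT brain and 109.5, 78 and 85.1 CPM in KO brain. Neither tissue showed any overlap of genotypes. The Zfp955 cluster, 3 genes on the same chromosome, summed to 25.1, 20.3 and 31.5 and 15.7, 11.7 and 15.5 CPM in WT and KO liver, and to 41, 27.6 and 40.3 and 69.1, 47.2 and 56.8 CPM in WT and KO brain, again without overlap.

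The chromosome 2 cluster was at 44.7, 22.4 and 43.2 CPM in WT liver and 16.3, 10.6 and 7.91 CPM in KO liver. In brain it was at 17.7, 11.2 and 15.3 CPM in WT and 27.2, 21.1 and 14.4 CPM in KO, where the genotypes overlapped. The chromosome 4 cluster was at 38.1, 11.7 and 15.9 CPM in WT liver, 9.42, 4.93 and 4.82 CPM in KO liver, 15.2, 10.9 and 11.2 CPM in WT brain and 25.8, 22.7 and 18.9 CPM in KO brain. Its KO to WT ratio of means in liver was 0.292 and that of the chromosome 2 cluster 0.316. The chromosome 4 value rested on WT mouse B: without that library, a setting chosen after the data were seen, the ratios were 0.463 and 0.354.

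The chromosome 7 cluster had the highest ratio in brain, 2.52, from 5.26, 2.91 and 4.63 CPM in WT and 14.5, 11.3 and 6.47 CPM in KO. In liver its genotypes overlapped, at 16.2, 5.5 and 13.4 CPM in WT and 8.57, 3.07 and 4.56 CPM in KO. The chromosome 8 cluster was at 10.6, 5.66 and 10.9 and 7.18, 5.86 and 4.49 CPM in WT and KO liver, which overlapped, and at 7.33, 5.33 and 9.15 and 15.3, 10.6 and 11 CPM in WT and KO brain, which did not. Members outside clusters had ratios nearest to 1, at 0.656 in liver and 1.24 in brain. In liver the chromosome 8 cluster was close, at 0.644. It was nearer to 1 than they were without WT mouse B (0.704 against 0.670) or KO mouse F (0.719 against 0.652).

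**Figure D3:**
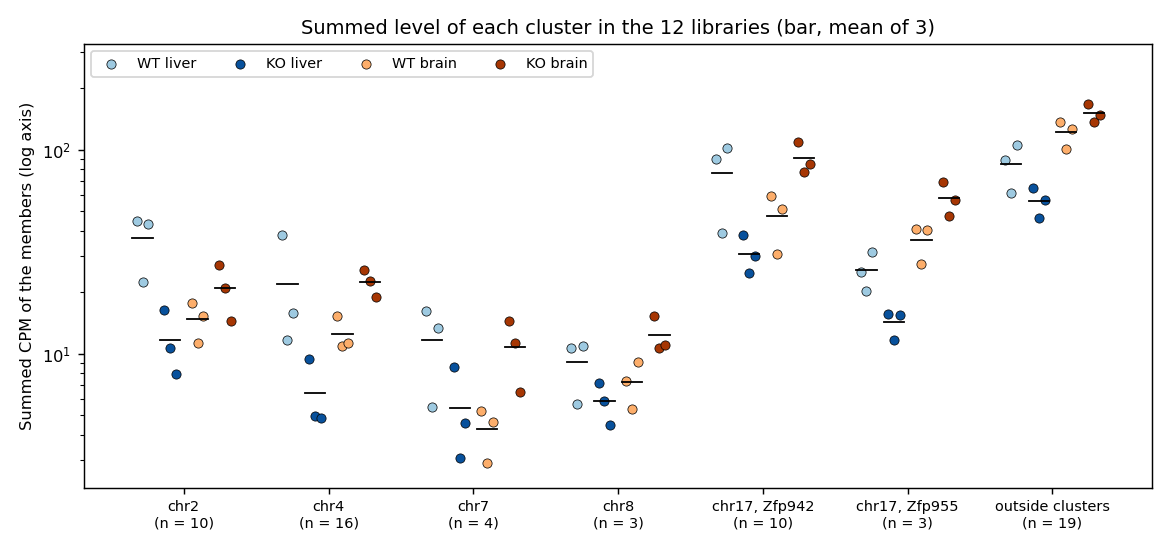
Summed CPM (log axis) of the members of each cluster, and of the 19 members outside clusters, in the 12 libraries, with 1 point per library and a bar at the mean of each group of 3. In every set the KO liver mean is below the WT liver mean and the KO brain mean is above the WT brain mean, with ratios of 0.292 to 0.656 in liver and 1.24 to 2.52 in brain.

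Gene by gene in liver, 38 members had enough counts to be fitted, and 34 had a negative and 4 a positive log2 fold change of KO over WT. The median was -1.01, against -0.00 for all 14075 genes and -0.08 for the 274 other Zfp genes tested. It was -1.38 for the 17 other protein-coding genes tested inside the spans of the clusters, 16 of them negative. No member passed the threshold in edgeR (0.0% of all genes did). An unadjusted p under 0.05 was seen for 21 members (7.33% of all genes), and DESeq2 called 11 (1.33%). In 11 of the 38 members all KO libraries lay below all WT libraries (5.18% of all genes tested), and in 1 they lay above (8.03%). Since the family was selected on this contrast, these counts describe it and are not support for it. With no filter on low counts 21 members were called in liver (1.63% of all genes), and without mouse D 7 (0.597%).

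In brain 43 members were fitted, of which 40 had a positive and 3 a negative log2 fold change. The median was 0.71, against -0.00 for all 17188 genes and 0.09 for the 309 other Zfp genes tested. It was 0.33 for the 22 other protein-coding genes tested inside the spans of the clusters, 19 of them positive. No member passed the threshold in edgeR (0.064% of all genes, 11 genes, did). An unadjusted p under 0.05 was seen for 21 members (11.0% of all genes), DESeq2 called 10 (1.66%) and edgeR with no filter on low counts 16 (3.15%). All KO libraries lay above all WT libraries in 18 of 43 members (8.42% of all genes tested) and below in none (7.95%). DESeq2 called 4 members in both tissues (0.135% of the 12574 genes tested in both), namely Zfp942, Zfp943, Zfp944 and Zfp976.

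Markers of brain regions moved with genotype in the same libraries. The marker lists were chosen with earlier results of these data known, so their counts are descriptions and not a test. Over all genes tested in brain, edgeR called 0.064%, 11.0% had an unadjusted p under 0.05 and DESeq2 called 1.66%. The 10 olfactory bulb markers summed to 18.4 to 25.8 CPM in WT brain and 69.9 to 96.9 CPM in KO brain, and 10 of 10 had a positive log2 fold change, 8 of them called. The 12 cerebellum markers summed to 982 to 1637 CPM in WT brain and 185 to 661 CPM in KO brain, with 12 of 12 negative and none called by edgeR, 10 at an unadjusted p under 0.05 and 4 called by DESeq2. Those of the choroid plexus summed to 193 to 324 CPM in WT brain and 98.4 to 154 CPM in KO brain. Most of that sum was Ttr, also a liver marker here, at 207 CPM on average in WT and 105 CPM in KO brain. All 9 choroid plexus markers tested were negative, with none called by edgeR, 7 at an unadjusted p under 0.05 and 3 called by DESeq2. No marker of these 3 lists was at 0 in all libraries of a brain group. Their part in the members' brain values was not tested.

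The head-to-head pair of the Zfp942 cluster gave closely similar values for both genes. Zfp942 was at 13.3, 4.07 and 14.1 CPM in WT liver and 3.47, 2.64 and 3.28 CPM in KO liver, and at 8.14, 3.98 and 7.24 CPM in WT brain and 13.5, 13.4 and 12.7 CPM in KO brain. Zfp943 was at 16, 4.86 and 16.3 CPM in WT liver and 5.4, 2.93 and 3.15 CPM in KO liver, and at 7.84, 4.54 and 8.63 and 17.6, 12 and 14.2 CPM in WT and KO brain. In brain every KO library of both genes exceeded every WT library. In liver mouse D was again the lowest WT library, and for Zfp943 it lay below KO mouse A. The log2 fold changes were -1.77 ± 0.44 (SE) and -1.73 ± 0.48 in liver and 1.04 ± 0.25 and 1.06 ± 0.26 in brain.

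Zfp946, the most abundant member of that cluster per kilobase, was at 16.2, 6.3 and 17.3 CPM in WT liver and 5.09, 4.29 and 4.49 CPM in KO liver, and at 6.12, 3.5 and 4.95 and 8.73, 7.6 and 8.23 CPM in WT and KO brain. Zfp944 was at 9.75, 4.54 and 10.6 and 4.09, 3.43 and 3.42 CPM in WT and KO liver and at 5.06, 3.18 and 3.72 and 11.1, 5.84 and 7.77 CPM in WT and KO brain. For both, the genotypes were apart in both tissues. Zfp945 was at 13.3, 6.21 and 11.4 CPM in WT brain and 27.1, 17.3 and 18.7 CPM in KO brain, and at 14.3, 9.49 and 18 and 10.7, 6.22 and 9.11 CPM in WT and KO liver, where the genotypes overlapped. Zfp994 had the lowest log2 fold change of the cluster in liver, -2.11 ± 0.65, and 1.15 ± 0.42 in brain.

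In the Zfp955 cluster, Zfp955a was at 8.31, 6.46 and 11.3 CPM in WT liver and 4.86, 3.07 and 5.03 CPM in KO liver, and at 11.5, 5.77 and 11 and 21.9, 16.3 and 17.8 CPM in WT and KO brain. Zfp955b was at 10.9, 6.93 and 12.4 and 5.33, 3.22 and 5.16 CPM in WT and KO liver, and at 19.8, 12.3 and 19.5 and 33.1, 22.2 and 27.8 CPM in WT and KO brain. Genotypes did not overlap for either gene in either tissue. These genes share 26.5% and 27.9% of their windows, mainly with each other, so part of the reads of each could not be placed. Zfp970, the leading gene of the chromosome 2 cluster, had log2 fold changes of -1.89 ± 0.43 in liver and 0.49 ± 0.29 in brain, from the CPM given above.

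The highest values in brain were those of low-count members of chromosomes 4 and 7. In liver the lowest were those of Zfp982 and Zfp992 on chromosome 4. Zfp994 on chromosome 17 (-2.11) and Zfp970 on chromosome 2 (-1.89) followed there. Zfp982 had the lowest log2 fold change in liver (-2.63 ± 1.55) and the highest in brain (2.11 ± 0.77). Its liver levels were 15.1, 2.23 and 0.639 CPM in WT and 1.93, 1.07 and 0 CPM in KO, and its brain levels 0.708, 0.0796 and 0.158 CPM in WT and 1.28, 2.16 and 0.518 CPM in KO. The liver value was dominated by WT mouse B, and the SE is correspondingly wide. Zfp992 was at 5.5, 3.27 and 1.35 and 1.31, 0.143 and 0.402 CPM in WT and KO liver (-2.48 ± 0.75), with KO mouse A just below WT mouse E. In brain Zfp977 (1.65 ± 0.52), Zfp976 (1.55 ± 0.45) and Zfp991 (1.21 ± 0.52) came next. The filter on low counts keeps a gene with enough counts in as many libraries as 1 group holds, so 1 genotype can carry it. Zfp977 had 7, 3 and 9 counts in WT brain and 12, 14 and 20 in KO brain. Zfp992 had 84, 41 and 19 in WT liver and 17, 2 and 6 in KO liver. With no filter, 48 of 55 members were negative in liver (median, -1.15) and 47 of 54 positive in brain (median, 0.73).

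Zfp976 was at 1.21, 0.995 and 1.62 CPM in WT brain and 5.29, 4.48 and 1.55 CPM in KO brain, so mouse F was close to the WT libraries while mice A and C were not. Zfp975, its neighbour and the leading gene of the chromosome 7 cluster, was at 3.69, 1.79 and 2.65 CPM in WT and 8.48, 6.02 and 3.88 CPM in KO. Zfp930 led the chromosome 8 cluster, at 5.69, 1.59 and 4.61 and 1.93, 1.57 and 0.938 CPM in WT and KO liver and 3.24, 2.15 and 4.28 and 9.56, 5.96 and 5.59 CPM in WT and KO brain. Zfp933 led the chromosome 4 cluster, at 8.51, 3.35 and 10 and 4.79, 2.5 and 4.02 CPM in WT and KO liver and 12.1, 9.27 and 9.54 and 18.8, 16.8 and 14.7 CPM in WT and KO brain. In brain all KO libraries exceeded all WT libraries for Zfp933, Zfp930 and Zfp975, and in liver all 3 overlapped.

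Several members outside the clusters had similar levels in both genotypes. Zfp954 was at 6.28, 5.9 and 5.61 CPM in WT liver and 6.48, 7.07 and 7.37 CPM in KO liver, and its log2 fold changes were 0.21 ± 0.20 in liver and 0.08 ± 0.17 in brain. It was the 1 member with all KO above all WT libraries in liver. Zfp956 (0.13 ± 0.30 in liver, -0.15 ± 0.17 in brain), Zfp949 (0.03 ± 0.22 and 0.18 ± 0.14) and Zfp940 (0.02 ± 0.43 and 0.25 ± 0.17) had the other positive values in liver. In brain the lowest values were those of Zfp963 (-0.19 ± 0.53), Zfp956, Zfp951 (-0.02 ± 0.33) and Zfp959 (0.01 ± 0.35). Zfp951 and Zfp959 nevertheless lay at -0.79 ± 0.39 and -0.78 ± 0.33 in liver, so low values there did not always go with high values in brain.

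Of 37 members fitted in both tissues, 31 had a negative log2 fold change in liver and a positive one in brain, and 5 had genotypes that did not overlap in that arrangement in both tissues (0.819% of the 12574 genes tested in both). The scatter of liver against brain values shows these by cluster. The difference of the genotype effects, liver minus brain, had a median of -1.85 over 45 members (all genes, 0.04). In the fit without pairing no member was called (0.0% of all genes), an unadjusted p under 0.05 was seen for 32 (10.6% of all genes), and DESeq2 called 23 (2.0%). With no filter on low counts 17 were called (0.531%), and without mouse D 12 (0.442%). With mouse as a replicate block, which pairs the tissues of an animal, 12 members were called (0.359% of all genes, 68 genes): Zfp930, Zfp942, Zfp943, Zfp944, Zfp945, Zfp946, Zfp950, Zfp955a, Zfp955b, Zfp958, Zfp970 and Zfp994. With the block and the GC offset together none was called, and 29 had an unadjusted p under 0.05 (7.77% of all genes).

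**Figure D4:**
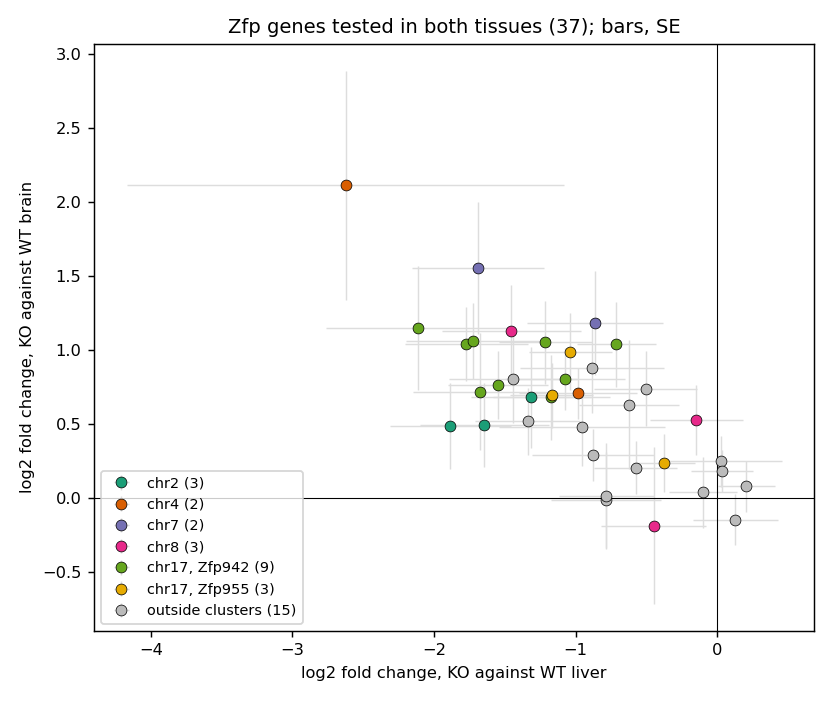
Log2 fold change of KO over WT in brain against that in liver for the 37 members fitted in both tissues, with SE bars, coloured by cluster. Of these, 31 lie in the upper left section, with negative liver and positive brain values, and the members near the origin are mostly from outside the clusters.

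The largest negative differences belonged to Zfp982 (-4.72 ± 1.79), Zfp991 (-4.50 ± 1.14), Zfp979 (-3.88 ± 1.58) and Zfp992 (-3.72 ± 1.04), all on chromosome 4, where counts were low and standard errors wide. Among the block-called members the values in that fit ran from -3.13 for Zfp994 to -1.74 for Zfp945. Zfp950 on chromosome 19 (-1.77) and Zfp958 on chromosome 8 (-2.29) were the only ones of the 12 outside the clusters. Zfp950 was at 28, 14.7 and 40.6 CPM in WT liver and 14, 8.36 and 11.3 CPM in KO liver, and at 21.1, 11.2 and 16.1 and 26.4, 21.5 and 21 CPM in WT and KO brain. The highest values were those of Zfp956 (0.31 ± 0.31), Zfp954 (0.16 ± 0.25), Zfp961 (-0.10 ± 0.35) and Zfp949 (-0.11 ± 0.25).

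GC content was examined because the members lie at the low end of the range. Other genes of low GC content had values in the same directions, but smaller. In the band under 40% GC, the 20 members fitted in liver had a median log2 fold change of -1.33 and all 20 were negative, while the 1040 other genes had a median of -0.15. In brain the 25 members of that band had a median of 1.04, all positive, and the 1599 other genes a median of 0.31. An offset that flattens the GC trend in each library brought the other genes to 0.05 and -0.04, and left the members at -1.09 in liver and 0.61 in brain. Over all members fitted, the liver median of -1.01 became -0.82 with the offset, and the brain median of 0.71 became 0.43.

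Within the family, members with more GC had smaller genotype values. The 16 members of 40% to 45% GC had medians of -0.83 in liver and 0.39 in brain, and those with 50% GC or more, Zfp954 and Zfp956, had 0.17 and -0.04. By cluster, the offset left median log2 fold changes in liver of -2.35 on chromosome 4, -1.41 on chromosome 2, -1.31 in the Zfp942 cluster, -1.09 on chromosome 7, -0.85 in the Zfp955 cluster and -0.34 on chromosome 8. In brain the same medians were 1.20 on chromosome 7, 0.70 on chromosome 4, 0.61 and 0.49 in the Zfp942 and Zfp955 clusters, 0.38 on chromosome 8 and 0.27 on chromosome 2. These medians rest on few members, and on chromosomes 4 and 7 on unequal numbers in the tissues. Of the 16 members on chromosome 4, 3 were fitted in liver and 5 in brain, of the 4 on chromosome 7, 2 and 3, and of the 10 on chromosome 2, 3 and 3. In the Zfp942 cluster 9 of 10 were fitted in each tissue, and in the Zfp955 and chromosome 8 clusters all 3 were.

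**Figure D5:**
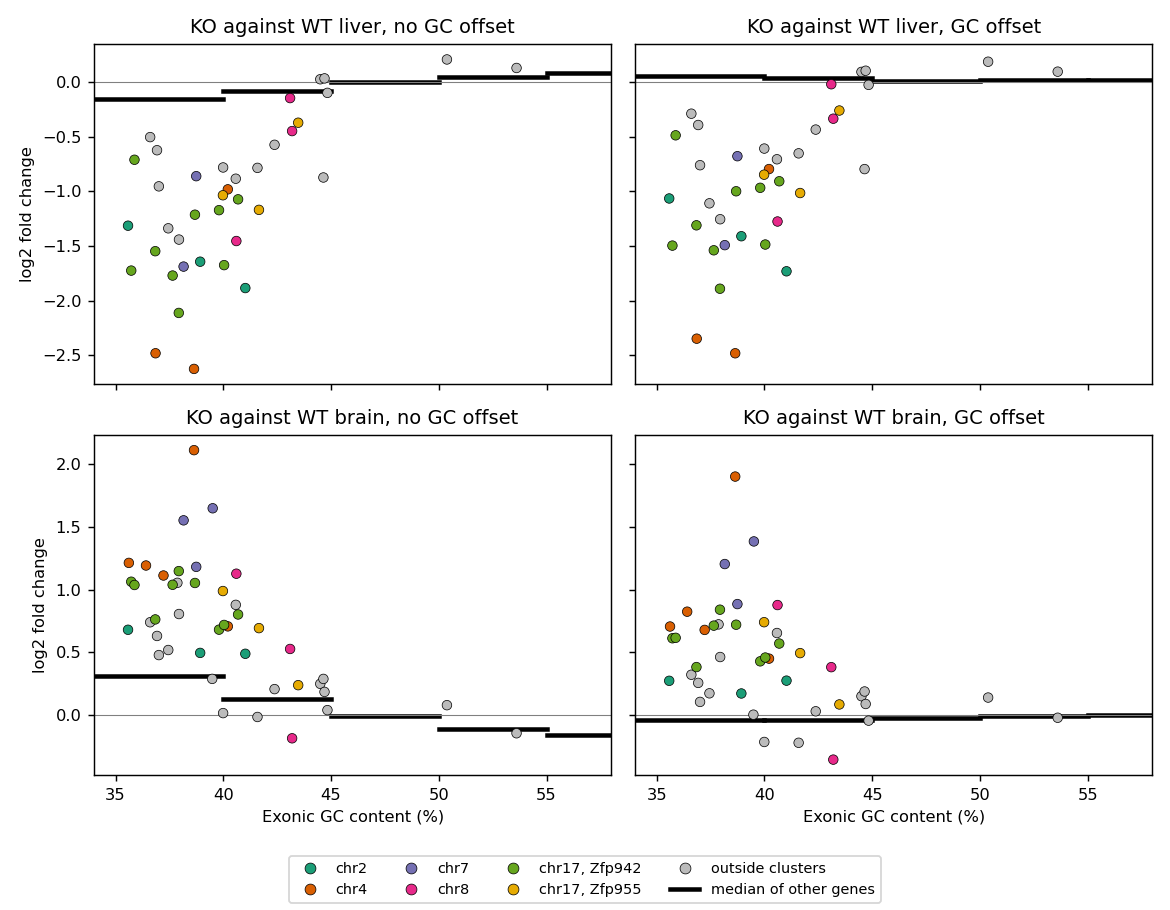
Log2 fold change of KO over WT against exonic GC content for the members fitted in liver (top) and brain (bottom), without (left) and with (right) the GC offset, coloured by cluster, with black bars at the median of all other genes in each GC band. The black bars slope in the left panels, between -0.15 and 0.08 (liver) and between 0.31 and -0.16 (brain), and lie near 0 in the right panels, where most members keep their side of 0.

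Symbols numbered just outside the range are given beside those just inside it. The family was selected on these values, so this is a description and not a test of the rule. Zfp879 and Zfp882, the highest numbers below it, had liver log2 fold changes of -0.88 and -0.37 and brain values of -0.04 and 0.34. Zfp930 and Zfp931, the lowest numbers inside it, had -1.46 and -1.31 in liver and 1.13 and 0.68 in brain. Zfp932 and Zfp933, the next numbers, had -0.96 and -0.98 in liver, near the value of Zfp879, and 0.48 and 0.71 in brain.

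The partners through which KRAB zinc finger proteins act were examined as a list of 22 corepressor genes, all of which were counted in every group. Between genotypes 12 had a positive and 10 a negative log2 fold change in liver (median, 0.04), and 11 and 11 did in brain (median, 0.00). No gene of the list was called in either tissue by edgeR, and DESeq2 called 0 in liver and 1 in brain. The count at an unadjusted p under 0.05 was 2 in liver and 3 in brain, or 9.09% and 13.6% of the list against 7.33% and 11.0% of all genes. Trim28, the KRAB-binding scaffold, was at 61 ± 4.16 CPM (SD, n = 3) in WT liver and 73.2 ± 4.2 CPM in KO liver, and at 46.7 ± 11.1 and 38.8 ± 8.97 CPM in WT and KO brain. Setdb1, the H3K9 methyltransferase, had log2 fold changes of 0.12 ± 0.12 in liver and 0.04 ± 0.17 in brain. Between tissues, 8 of the 22 were called higher in liver, Trim28 and Setdb1 among them, and 9 higher in brain, among them Cbx5, which encodes an HP1 protein, and Dnmt1, the maintenance DNA methyltransferase. These are 36.4% and 40.9% of the list, near the 37.9% and 47.0% of all genes.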

How the data were processed

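Total RNA of mouse liver and brain (3 libraries per group, 12 in all) had been made into stranded libraries (SMARTer Stranded Total RNA-Seq Kit v2) and sequenced as 100-base single-end reads. The deposited values are raw counts per gene. The authors checked reads with FastQC 0.11.5, trimmed them with Trimmomatic, aligned them to mm10 with STAR 2.7.3a and counted exonic reads on the reverse strand with featureCounts. The options they give do not include counting of reads that map to several places, which lowers the counts of near-identical genes. Library totals were 14403309 to 21623180, and no counting intervals were computed, since each group has replicates.

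Gene IDs were matched to GENCODE M21 (55227 of 55487 had a symbol). The members and lists were chosen with earlier results of these data known. KO and WT were compared within each tissue, and liver with brain and the difference of genotype effects over all 12 libraries, with edgeR 4.0.16 in R 4.3.3 (TMM, filterByExpr, robust quasi-likelihood test, Benjamini-Hochberg adjustment over all genes tested, call at an adjusted p under 0.1). The study itself used DESeq2, which was run here (1.42.0) as an alternative. Fold changes are given ± SE. Named genes were the 8 members highest per kilobase, the highest of each cluster, the 6 with the smallest p in each direction between tissues, the 4 lowest and 4 highest log2 fold changes of each genotype comparison, any member called with or without mouse as a block, and the lists of markers and corepressors, 33 members in all.

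The GC offset was a spline (5 degrees of freedom) of each library's log2 CPM deviations on exonic GC content. The other alternatives were RLE size factors, no filter on low counts, leaving out mitochondrial rRNA, leaving out each mouse and mouse as a block, and, chosen after seeing the data, tissue contrasts within each genotype. Liver and brain with the same letter came from the same mouse, so the block pairs them. The correlation of their deviations from group means over 12574 genes was -0.0387 to 0.141. Fingers were found in translated coding sequences by the spacing of cysteines and histidines, and the KRAB core by a short signature of its A box. The scripts were tested on simulated counts with known changes. No animal-level sex, age or batch was labelled, so p-values measure the spread between these animals.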

Additional observations from a re-analysis of the deposited data

Results flagged for a closer look

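A genotype effect that differed between the tissues stood out for 12 members of the family, by an edgeR quasi-likelihood test of the difference itself with mouse as a block. They were Zfp930, Zfp942, Zfp943, Zfp944, Zfp945, Zfp946, Zfp950, Zfp955a, Zfp955b, Zfp958, Zfp970 and Zfp994, and all 12 had a negative log2 fold change of KO over WT in liver and a positive one in brain. The family was selected on this contrast, so the count describes it. The share of all genes called in the same test was 0.359%. Neither the edgeR fit without the block nor the block with the GC offset called any member. The median difference over 45 members was -1.85 without the block, -1.86 with it and -1.47 with block and GC offset. DESeq2 without the block called 23 members (2.0% of all genes).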

How the results depend on the processing

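In the tissue comparison the GC offset gave 11 members higher in brain and 22 higher in liver in place of 25 and 7, where the shares over all genes went from 47.0% and 37.9% to 38.8% and 48.5%, with a median log2 fold change of 0.38 in place of -0.55, and 11, 21 and 0.29 with the replicate block with GC offset (38.4% and 47.8% of all genes). The paired fit with mouse as a replicate block alone gave 26 and 6 (46.4% and 37.3% of all genes), with a median of -0.63. With WT libraries only, 10 were higher in brain and 19 higher in liver (43.6% and 34.8% of all genes), with a median of 0.41 (all genes, -0.21). With KO libraries only, these were 33 and 1 (44.6% and 35.5% of all genes), with a median of -1.41 (all genes, -0.22). Of the 7 members called higher in liver, Zfp982 and Zfp992 then changed sign in KO, to -0.41 and -0.20, and of the 25 called higher in brain 9 changed sign in WT (Zfp930, Zfp942, Zfp943, Zfp945, Zfp958, Zfp971, Zfp991, Zfp994 and Zfp995). Leaving out each mouse in turn gave 22 to 26 members higher in brain, 4 to 8 higher in liver (4 without mouse A), against 45.6% to 46.9% and 36.3% to 37.0% of all genes, 27 to 32 in all and medians of -0.62 to -0.47.

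In liver 0 members were called KO against WT, but 11 by DESeq2 (1.33% of all genes), 21 with no filter on low counts (1.63%) and 0 to 7 when mice were left out, the 7 without mouse D (0.597%). The median of -1.01 ranged from -1.42 to -0.80 without single mice and was -0.82 with the GC offset. In brain 0 members were called, but 10 by DESeq2 (1.66%) and 16 with no filter (3.15%), and 0 when any 1 mouse was left out. The median of 0.71 ranged from 0.51 to 0.90 without single mice and was 0.43 with the GC offset. For the difference of the genotype effects the count went from 0 to 23 by DESeq2 (2.0%), 17 with no filter (0.531%), 12 with the replicate block (0.359%) and 0 to 12 without single mice, the 12 without mouse D (0.442%). Its median of -1.85 ranged from -2.07 to -1.70 without single mice and was -1.52 with the GC offset and -1.47 with the replicate block with GC offset. The causes of these changes were not tested. Zfp982 was not called between tissues with no filter either (edgeR adjusted p = 0.163). Medians over members kept their sign under each alternative in the genotype comparisons.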

Other observations

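The 59 other protein-coding genes that lie inside the spans of the 6 clusters were read beside the members. In liver 17 of them had enough counts, with a median log2 fold change of KO over WT of -1.38 and 16 negative values. In brain 22 had enough counts, with a median of 0.33 and 19 positive values. An unadjusted p under 0.05 (edgeR) was seen for 52.9% of them in liver and 22.7% in brain. The shares were 55.3% and 48.8% of the members and 7.33% and 11.0% of all genes. Windows shared between these genes and the members were not counted separately.

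In the chromosome 4 cluster, Zfp979 and Zfp990 set mice E and F, 1 of each genotype, apart from the others in brain. Both genes were picked after their values were seen. Zfp979 was at 0.0396 CPM (1 count) in the brain of WT mouse E and 0.104 CPM (2 counts) in that of KO mouse F, against 0.358 to 1.19 CPM (9 to 21 counts) in the brains of the other 4 mice. The values of mice E and F thus lay at the floor of 3 counts or fewer. In liver it was at 0.284 CPM in mouse E and 0 in mouse F, against 0.232 to 3.60 CPM in the others. Zfp990 had counts only in mice E and F: 10 in WT liver E, 4 in WT brain E and 6 in KO brain F. Mice E and F were also the ones that expressed Xist. The strain origin of the cluster in each mouse was not labelled.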
